A study of Mus musculus with 8 samples.

Results

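*Tcl1*, *Dppa2*, *Dppa4*, *Dppa5a*, *L1td1*, *Tdh* and *Lncenc1* are genes of pluripotent stem cells that fetal germ cells also use, and their transcripts were followed in whole mouse ovaries at E14.5. They were chosen by gene symbol, 7 genes of the 25239 in the count data, and all 7 were among the 14249 genes with enough counts to be tested. *Tcl1*, *Dppa2* and *Lncenc1* were selected on their Log2FC between knockout and control in these same libraries, so for these 3 genes the values are a description and no p is given. The other 4 were listed for their function, with earlier results of these data known.

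The control ovaries were *Bmpr1a* fl/fl, and the knockout ovaries (*Bmpr1a*-cKO) were *Bmpr1a* fl/fl with 1 copy of Oct4-Cre, all from C57BL/6 females. The Cre is a tamoxifen-dependent form driven by *Oct4*, which in the fetal gonad is a germ cell gene, so *Bmpr1a*, a type I receptor for BMP ligands, was to be deleted in germ cells and kept in the somatic cells. Both genotypes were littermates from *Bmpr1a* fl/fl dams mated to males carrying the Cre, and all these dams were injected daily from 9.5 to 11.5 dpc with 4-hydroxytamoxifen (1 mg), to activate the Cre, together with progesterone (0.5 mg). Each of the 4 libraries per genotype pooled the ovary pairs of 2 embryos, and the 8 embryos per genotype came from 6 litters, with the litter of each library not given in the sources used here. In bulk ovaries, fewer cells of a type and less RNA per cell cannot be told apart.

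Pluripotency genes are active in primordial germ cells, and in the fetal ovary they are shut down as germ cells leave the mitotic cycle and enter meiosis. DPPA2 and DPPA4 are paired SAP-domain proteins that bind chromatin and keep developmental promoters open to activation. TCL1 binds AKT kinases and raises their activity, TDH breaks down threonine in mouse embryonic stem (ES) cells, DPPA5A and L1TD1 bind RNA, and *Lncenc1* is a long non-coding RNA of naive ES cells.

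The libraries held 8562961 to 15365052 counts, so that 3 counts, the limit that a count of 0 allows, corresponded to 0.189 to 0.358 CPM (counts scaled to equal library size), for counting error only. *Bmpr1a* itself, read from all cells of the ovary, was at 199.5 to 236.5 CPM in control and 184.9 to 209.1 CPM in *Bmpr1a*-cKO libraries (Log2FC -0.16, edgeR FDR 0.0692). Somatic cells keep the gene and the libraries overlapped, so these counts do not check the genotype labels. By qRT-PCR the paper reports reduced *Bmpr1a* in knockout ovaries at each timepoint it analysed. The summed level of 10 germ cell markers was 776 to 1024 CPM in control and 755 to 1177 CPM in knockout libraries (p = 0.343 by a two-sided exact permutation test, 0.441 after adjustment over 9 marker lists). Of these 10 markers, 2 were higher and 4 lower in *Bmpr1a*-cKO at the thresholds given below. Among other marker lists, summed markers were at 1375 to 1650 CPM in control against 1165 to 1387 CPM in *Bmpr1a*-cKO for pregranulosa cells. The sum of Sertoli cell markers was 18.2 to 20.8 against 14.6 to 15.8 CPM, which does not show that such cells were present. Summed markers were at 42.2 to 48.4 against 25.0 to 43.6 CPM for steroidogenic cells, 129.8 to 160.4 against 101 to 121 CPM for mesonephros, and 38.8 to 49.5 against 52.6 to 68.6 CPM for macrophages. For these 5 lists the exact permutation p was 0.0286 or 0.0571, where 0.0286 is the smallest that 4 against 4 libraries allow, and 0.0857 or 0.103 after adjustment. The exact permutation p was 0.429 for stroma, 0.143 for endothelium and 0.886 for erythroid markers, whose globin genes were listed at 0. After adjustment these were 0.482, 0.214 and 0.886. The part of any of these cells in the results was not tested.

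The promoter sequences of *Tcl1*, *L1td1* and *Lncenc1* are shown because they let a reader compare the CpG content of a gene that was much higher in *Bmpr1a*-cKO, a gene that was not, and a non-coding gene that was much higher. They come from RefSeq promoter windows of 300 bases on GRCm38.p6 (mm10), trimmed to end before the first annotated base of the gene, and each CG is in capitals. The other 4 genes had no entry. *Tcl1* is read from the minus strand at chr12:105222794-105222987, *L1td1* from the plus strand at chr4:98726504-98726733 and *Lncenc1* from the plus strand at chr13:97434720-97434969.
Tcl1: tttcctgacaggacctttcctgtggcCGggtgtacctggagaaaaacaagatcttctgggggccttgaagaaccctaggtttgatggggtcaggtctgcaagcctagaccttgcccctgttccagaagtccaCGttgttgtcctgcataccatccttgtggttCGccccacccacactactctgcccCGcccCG
L1td1: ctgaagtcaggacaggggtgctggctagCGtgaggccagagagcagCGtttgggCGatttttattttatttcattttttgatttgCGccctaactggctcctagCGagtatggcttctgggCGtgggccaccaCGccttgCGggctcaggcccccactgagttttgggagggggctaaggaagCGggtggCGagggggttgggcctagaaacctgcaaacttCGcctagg
Lncenc1: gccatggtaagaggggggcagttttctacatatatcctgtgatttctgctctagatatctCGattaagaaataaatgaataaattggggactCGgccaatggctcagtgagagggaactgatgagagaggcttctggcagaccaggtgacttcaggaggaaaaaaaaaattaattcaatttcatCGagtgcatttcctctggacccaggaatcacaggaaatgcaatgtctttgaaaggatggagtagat
The printed stretches held 5 CG pairs for *Tcl1*, 11 for *L1td1* and 3 for *Lncenc1*. In the full windows there were 11, 14 and 4, where the median of all 32851 promoter windows was 7, and 41.4%, 36.3% and 68.6% of all windows had at least as many. On either strand, none of the 3 windows held ATGCAAAT, the octamer word of POU factors (in 1.74% of all windows), CACGTG, an E-box (7.15%), or GGCGCC, a word of SMAD-bound BMP targets (11.9%). This says only that these letters are not in these windows.

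*Tcl1*, *Dppa2*, *Dppa4* and *Lncenc1* had their lowest *Bmpr1a*-cKO library above their highest control library, *Tdh* was higher on average with overlapping libraries, and *Dppa5a* and *L1td1* lay in ranges that overlapped. Differentially expressed genes (DEGs) were those with an absolute Log2FC above 0.5 and an FDR below 0.05 by the quasi-likelihood test of edgeR, which called 10.2% of all tested genes, 6.11% as higher and 4.06% as lower in *Bmpr1a*-cKO. Libraries of the 2 genotypes did not overlap for 27.9% of all tested genes (16.1% with *Bmpr1a*-cKO higher), a background against which the 4 genes without overlap, 3 of them picked for this, have to be read. Of the 4 genes listed for function, *Dppa4* and *Tdh* were DEGs, and *Dppa5a* and *L1td1* were not.

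**Figure D1:**
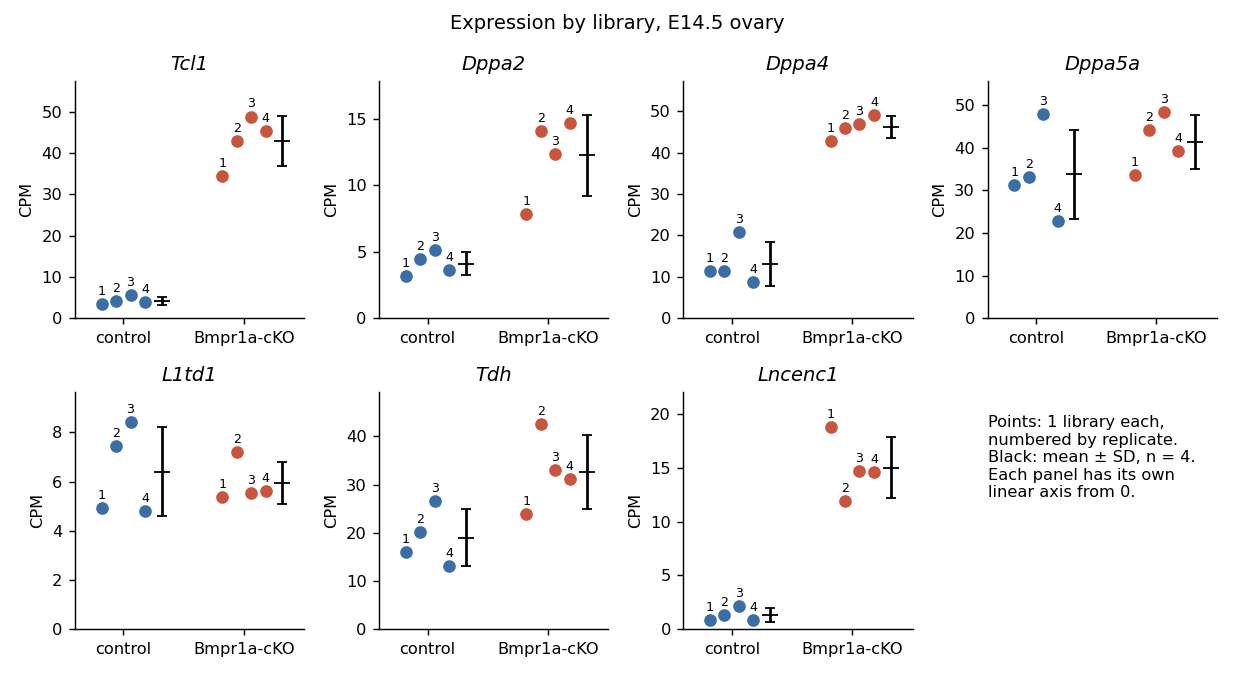
Expression in CPM of each of the 7 genes, each on its own linear axis from 0, in the 4 control (blue) and 4 *Bmpr1a*-cKO (red) libraries. Numbered points are libraries, and black bars are the mean ± SD (n = 4). *Tcl1*, *Dppa2*, *Dppa4* and *Lncenc1* show no overlap between genotypes, whereas the points of *Dppa5a*, *L1td1* and *Tdh* overlap.

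*Tcl1* lies on the minus strand of chromosome 12 (mm10, chr12:105216750-105222793, GENCODE vM21), with 6 annotated transcripts. It was at 3.37, 4.07, 5.62 and 3.85 CPM in control libraries 1 to 4 and at 34.6, 43.1, 48.9 and 45.3 CPM in *Bmpr1a*-cKO libraries 1 to 4. The lowest *Bmpr1a*-cKO library was thus far above the highest control library. Means were 4.23 ± 0.973 CPM (SD, n = 4) and 43.0 ± 6.08 CPM (SD, n = 4), a fitted Log2FC of 3.36, or 10.3-fold.

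The other TCL1-type genes of mouse, *Tcl1b1* to *Tcl1b5*, lie between 9.76 and 61.5 kb from *Tcl1* and had 0 counts in all 8 libraries. They are closely related copies, whose reads may map to several places and be lost in counting, and the abundant globin genes *Hba-a1*, *Hba-a2*, *Hbb-bs* and *Hbb-bt* were also listed at 0, so no statement on these copies can be made. Of 14 genes of the TCL1 family and the AKT kinases with their regulators, 9 were tested and none was a DEG in either direction, with a median Log2FC of -0.08 beside -0.0042 over all tested genes. At an FDR below 0.05 without a fold limit, which 29.8% of all tested genes passed, 2 were lower. *Pdpk1*, the kinase that activates AKT, had a Log2FC of -0.27 (edgeR FDR 0.00286). *Phlpp1*, a phosphatase of AKT, had a Log2FC of -0.48 (edgeR FDR 0.000617) and passed the fold limit without control library 2 (-0.57) or *Bmpr1a*-cKO library 3 (-0.50). The kinases *Akt1* and *Akt2*, to which TCL1 binds, had Log2FC values of -0.08 and -0.17.

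*Dppa4* and *Dppa2* are neighbours on the plus strand of chromosome 16 (chr16:48283733-48294237 and chr16:48303908-48319723), 9.67 kb apart. *Dppa4* was at 11.5, 11.4, 20.9 and 8.77 CPM in control libraries 1 to 4 and at 42.8, 46.0, 46.9 and 49.1 CPM in *Bmpr1a*-cKO libraries 1 to 4. The *Bmpr1a*-cKO libraries were close to each other, while control library 3 was well above the other controls. *Dppa4* rose from 13.2 ± 5.31 to 46.2 ± 2.62 CPM (SD, n = 4 each), a Log2FC of 1.84 (SE 0.17, 95% interval 1.47 to 2.21, 3.59-fold, edgeR FDR 2.44e-06).

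*Dppa2* was at 3.21, 4.43, 5.15 and 3.66 CPM in control libraries and at 7.87, 14.1, 12.4 and 14.7 CPM in *Bmpr1a*-cKO libraries. *Bmpr1a*-cKO library 1 was the lowest of its genotype and still above each control library. The means of 4.11 ± 0.857 and 12.3 ± 3.09 CPM (SD, n = 4 each) gave a Log2FC of 1.61, or 3.06-fold. *Dppa2* was selected on this difference, so that it and its partner are both higher is no independent observation. The ratio of *Dppa4* to *Dppa2* in CPM per kb of exon was 5.29, 3.80, 5.97 and 3.53 in control and 8.01, 4.79, 5.59 and 4.93 in *Bmpr1a*-cKO libraries, in ranges that overlapped.

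Cleavage-stage genes such as the *Zscan4* cluster, which DPPA2 and DPPA4 help to switch on in ES cells through the factor *Dux*, were nearly without counts. Of 20 such genes, 18 were in the count data, none had enough counts for a test, 10 were at 0 in all 8 libraries, and the 18 genes together had 15 counts over all libraries. Many belong to families of near-identical copies, for which the counting of multi-mapped reads matters, so this was no more than not detectable here.

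*Dppa5a* is a small gene of 3 exons on the minus strand of chromosome 9 (chr9:78367052-78368177). It was at 31.2, 33.0, 47.8 and 22.9 CPM in control and at 33.6, 44.0, 48.4 and 39.2 CPM in *Bmpr1a*-cKO libraries. Control library 3 lay among the highest *Bmpr1a*-cKO libraries, and the genotypes overlapped. Means were 33.7 ± 10.4 and 41.3 ± 6.35 CPM (SD, n = 4 each), with a Log2FC of 0.31 (SE 0.17, 95% interval -0.04 to 0.66, edgeR FDR 0.181), so that changes from 0.97-fold to 1.58-fold were within the interval. Without control library 3 it passed both thresholds (Log2FC 0.51, edgeR FDR 0.0101). The annotation holds a related pseudogene, *Dppa5c*, 94469 bases away, and reads shared with such a copy may be counted for neither.

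The KH-domain genes related to *Dppa5a* include the *Khdc1* cluster and *Ooep*, genes of germ cells and oocytes. Of 5, 3 were tested. *Khdc1a* rose from 1.52 ± 0.305 to 8.21 ± 2.55 CPM (SD, n = 4 each; Log2FC 2.47, edgeR FDR 4.08e-06), with 1.14 to 1.87 CPM in control and 4.53 to 9.95 CPM in *Bmpr1a*-cKO libraries. *Khdc1c* was at 0.126 to 0.886 CPM in control and 1.55 to 4.76 CPM in *Bmpr1a*-cKO libraries. It passed the filter on low counts (0.866 CPM in at least 4 libraries) through 4 *Bmpr1a*-cKO and 1 control library, so a difference was built into its entry and no test is given. *Khdc1* genes are closely related copies, so the share of each is uncertain. *Ooep* had a Log2FC of -0.08 (edgeR FDR 0.787).

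*L1td1*, whose protein derives from a LINE-1 open reading frame, lies on the plus strand of chromosome 4 (chr4:98726734-98738480). It was at 4.93, 7.44, 8.43 and 4.80 CPM in control and at 5.37, 7.21, 5.55 and 5.595 CPM in *Bmpr1a*-cKO libraries. All *Bmpr1a*-cKO libraries lay inside the control range. Means were 6.40 ± 1.82 and 5.93 ± 0.861 CPM (SD, n = 4 each), with a Log2FC of -0.08 (SE 0.19, 95% interval -0.48 to 0.33, edgeR FDR 0.798). The sign turned without control library 3 (Log2FC 0.072), and the interval left room for changes between 0.715-fold and 1.26-fold.

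*Tdh* lies on the minus strand of chromosome 14 (chr14:63492347-63509092) and overlaps an antisense transcript that is not in the count data. It encodes threonine dehydrogenase, the first enzyme of threonine breakdown to glycine and acetyl-CoA in mouse. It was at 16.0, 20.2, 26.6 and 13.0 CPM in control and at 23.9, 42.5, 33.0 and 31.2 CPM in *Bmpr1a*-cKO libraries. The only overlap came from control library 3, which was above *Bmpr1a*-cKO library 1. *Tdh* rose from 18.9 ± 5.90 to 32.6 ± 7.69 CPM (SD, n = 4 each), a Log2FC of 0.82 (SE 0.19, 95% interval 0.42 to 1.22, 1.76-fold, edgeR FDR 0.00412).

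Of 10 enzymes of threonine breakdown, glycine cleavage and the folate cycle, all were tested, 5 were higher DEGs and none was lower. Their median Log2FC was 0.45. Over all tested genes, 6.11% were higher and 4.06% lower DEGs, with a median Log2FC of -0.0042, and the list was drawn up with earlier results of these data known. *Gcat*, which cleaves the product of TDH to glycine, had a Log2FC of 0.59 (edgeR FDR 0.000232). In the glycine cleavage system, *Gldc* had a Log2FC of 0.59 (edgeR FDR 0.00447) and *Amt* of 0.96 (edgeR FDR 0.000505). Of the folate enzymes, *Shmt1* had a Log2FC of 1.05 (edgeR FDR 3.45e-06) and *Mthfd1* of 0.78 (edgeR FDR 1.01e-06). *Gcsh* (0.28) and *Mthfd1l* (0.31) passed the FDR threshold but not the fold limit. *Shmt2* (Log2FC 0.03), *Mthfd2* (0.22) and the shared dehydrogenase subunit *Dld* (-0.07) did not pass the FDR threshold. When libraries were scaled to the germ cell marker sum, 3 of the 5 remained DEGs (*Amt*, *Shmt1* and *Mthfd1*), and *Gcat* and *Gldc* did not. *Gldc* was also not a DEG without control library 4.

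*Lncenc1*, a long intergenic non-coding RNA on the plus strand of chromosome 13 (chr13:97434970-97497007), was counted with 10, 15, 23 and 13 reads in control libraries and 158, 161, 141 and 214 in *Bmpr1a*-cKO libraries. These counts correspond to 0.822, 1.33, 2.15 and 0.820 CPM in control and 18.8, 12.0, 14.8 and 14.6 CPM in *Bmpr1a*-cKO libraries. The genotypes were far apart, only 2 of 4 control libraries reached the filter's level, and the few control reads leave the control level the least precise of the 7. Means were 1.28 ± 0.629 and 15.0 ± 2.83 CPM (SD, n = 4 each), with a Log2FC of 3.59, or 12.0-fold. A processed pseudogene, not in the count data, overlaps it on the opposite strand. Which strand was counted is not given in the sources used here, so reads of such overlapping transcripts at *Lncenc1* and *Tdh* cannot be told apart.

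Of 34 genes listed as other *Platr* transcripts, non-coding RNAs of pluripotent cells, and protein partners of *Lncenc1*, 14 were in the count data and 5 were tested. *Platr14* rose from 1.77 to 4.89 CPM (Log2FC 1.44, edgeR FDR 0.000542). *Platr4* was at 0.177 to 0.568 CPM in control and 1.55 to 3.12 CPM in *Bmpr1a*-cKO libraries, and it passed the filter through the *Bmpr1a*-cKO libraries alone, so no test is given. *Platr20* had a Log2FC of 0.09 (edgeR FDR 0.82). *Ptbp1* and *Hnrnpk*, RNA-binding proteins that associate with *Lncenc1*, had Log2FC values of 0.23 (edgeR FDR 0.00896) and 0.18 (edgeR FDR 0.0542).

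**Figure D2:**
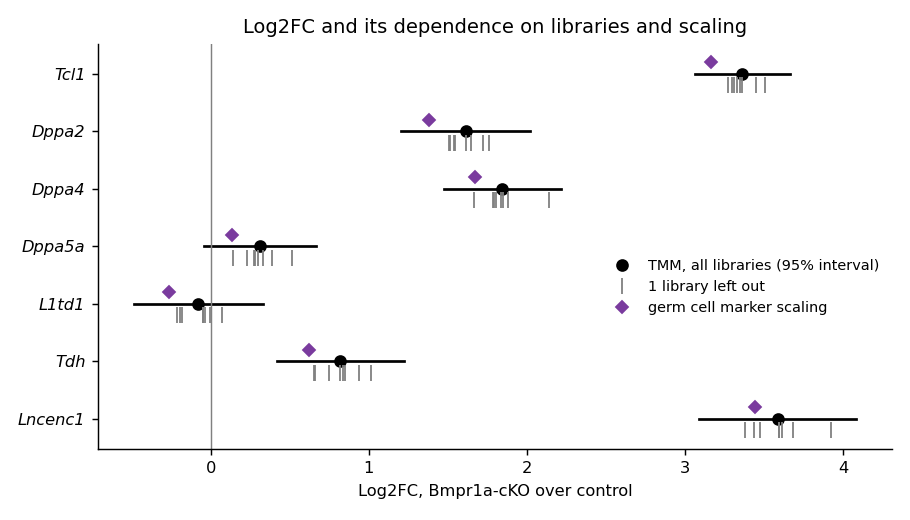
Log2FC (*Bmpr1a*-cKO minus control) of the 7 genes by TMM scaling (black points, bars 95% intervals), with 1 library left out (grey ticks) and by germ cell marker scaling (purple diamonds). The intervals of *Dppa5a* and *L1td1* include 0 and those of *Dppa4* and *Tdh* do not. *Tcl1*, *Dppa2* and *Lncenc1* were selected on this Log2FC, so their place on the axis is a description. Their bars are not to be read as a test.

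When CPM were divided by merged exon length, so that genes could be ranked, *Dppa5a* was the highest of the 7 in both genotypes, at 54.5 ± 16.7 CPM per kb in control and 66.7 ± 10.3 CPM per kb in *Bmpr1a*-cKO (SD, n = 4 each). In control it was followed by *Dppa4* (7.91 ± 3.20 CPM per kb) and *Tdh* (7.24 ± 2.26), whose libraries overlapped. *Tcl1* (2.29 ± 0.527 CPM per kb), *L1td1* (2.02 ± 0.573) and *Dppa2* (1.68 ± 0.350) came next, each overlapping its neighbour in the order, and *Lncenc1* was the lowest (0.388 ± 0.191). In *Bmpr1a*-cKO the order was *Dppa5a*, *Dppa4* (27.8 ± 1.58 CPM per kb), *Tcl1* (23.3 ± 3.30), *Tdh* (12.5 ± 2.94), *Dppa2* (5.01 ± 1.26), *Lncenc1* (4.56 ± 0.859) and *L1td1* (1.87 ± 0.271). There the neighbours *Dppa4* and *Tcl1*, and *Dppa2* and *Lncenc1*, overlapped. The level of *Tcl1* relative to *Dppa5a*, both per kb, was 0.0362, 0.0414, 0.0395 and 0.0565 in control and 0.345, 0.328, 0.339 and 0.388 in *Bmpr1a*-cKO libraries. These ranges did not overlap, but *Tcl1* was selected on its rise, so the distance restates the selection.

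**Figure D3:**
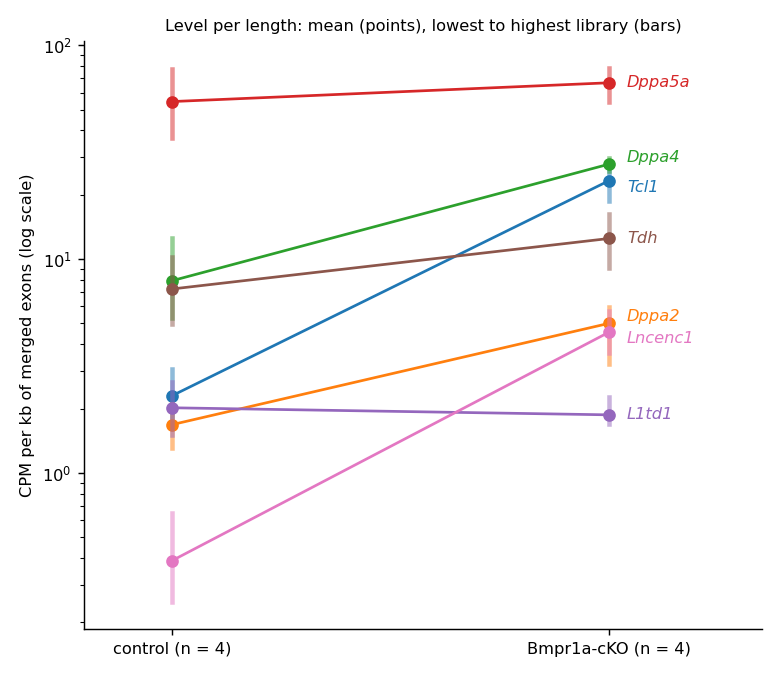
Level of each of the 7 genes in CPM per kb of merged exons (log axis) in control and *Bmpr1a*-cKO. Points are means of 4 libraries, joined by a line per gene, and bars run from the lowest to the highest library. *Dppa5a* is highest in both genotypes, *Lncenc1* is lowest in control and *L1td1* is lowest in *Bmpr1a*-cKO.

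Within a genotype the 7 genes tended to be high or low in the same libraries. Control library 3 was the highest control for 7 of 7 genes, with log2 deviations from the control mean between 0.34 for *Dppa2* and 0.77 for *Lncenc1*, and the lowest control was library 4 for 5 genes and library 1 for 2. Among the knockouts, *Bmpr1a*-cKO library 1 was the lowest for 6 of 7 genes and the highest for *Lncenc1*, whose lowest was library 2. The germ cell marker sum was itself highest in control library 3 (0.24 above the control mean on the log2 scale) and, among the knockouts, lowest in *Bmpr1a*-cKO library 1 (a deviation of -0.38). Its lowest control was library 1 (-0.15) and not library 4 (-0.11), the lowest control for 5 of the 7 genes, and its highest knockout was *Bmpr1a*-cKO library 4 (0.27).

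**Figure D4:**
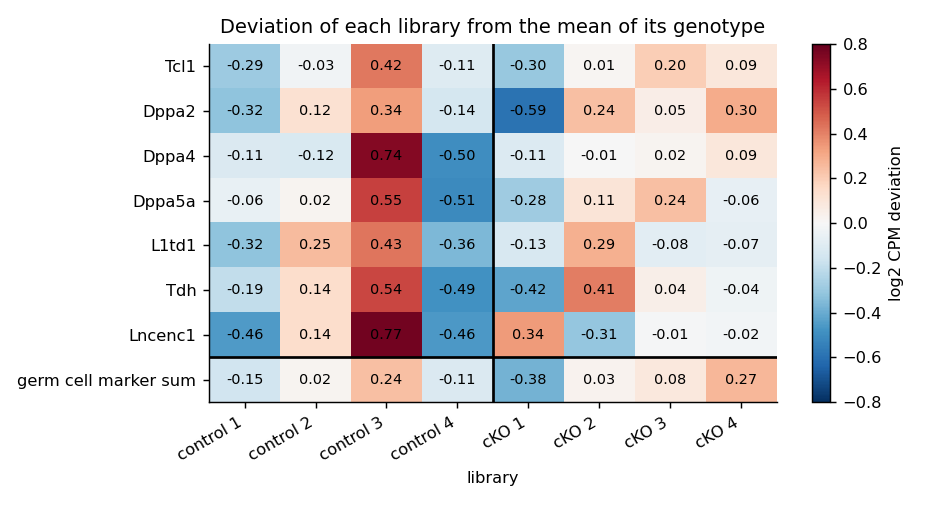
Log2 CPM deviation (colour and number, red above and blue below) of each library from the mean of its genotype, for the 7 genes and for the summed level of 10 germ cell markers. Control library 3 is above its genotype mean for 7 of 7 genes, and *Bmpr1a*-cKO library 1 is the lowest of its genotype for 6 of 7.

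Expressed per 1000 counts of the 10 germ cell markers, the spread between control libraries was smaller for 7 of 7 genes. The coefficient of variation of *Tcl1* in control went from 23.0% on CPM to 10.0%, and that of *Dppa2* from 20.8% to 9.23%. In *Bmpr1a*-cKO it was smaller for 4 genes and larger for 3, among them *Lncenc1* (18.8% to 38.5%). On this scale *Tcl1* was at 4.83 ± 0.483 in control and 43.6 ± 3.82 in *Bmpr1a*-cKO, *Dppa4* at 14.8 ± 4.03 and 47.4 ± 6.45, and *Dppa2* at 4.71 ± 0.434 and 12.2 ± 1.53 (SD, n = 4 each). *Tdh* no longer overlapped, with 20.6, 23.1, 26.0 and 16.3 in control and 31.6, 42.5, 31.8 and 26.5 in *Bmpr1a*-cKO libraries. *Dppa5a* and *L1td1* still overlapped. Scaled in this way before the fit, which moved the median Log2FC of all genes from -0.0042 to -0.19, *Dppa4* (Log2FC 1.67) and *Tdh* (0.62, edgeR FDR 0.0164) remained higher, while *Dppa5a* had 0.13 (edgeR FDR 0.682) and *L1td1* -0.27 (edgeR FDR 0.499).

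Other genes of ES cells and early germ cells were taken as a list of 27, drawn up with earlier results of these data known. Of these, 20 had enough counts for a test, and 13 were higher DEGs and 0 lower, with a median Log2FC of 0.61. Over all tested genes, 6.11% were higher and 4.06% lower DEGs, with a median Log2FC of -0.0042. *Dppa3*, a maternal factor that acts on DNA methylation in early embryos, rose from 27.6 to 81.3 CPM (Log2FC 1.58, edgeR FDR 5.99e-05). *Tex19.1* and *Tex19.2*, which restrain retrotransposons in germ cells, had Log2FC values of 0.84 and 1.65, and the transposon silencer *Morc1* had 0.95. The methylcytosine dioxygenase *Tet1* had a Log2FC of 0.88, and the DNA methyltransferase *Dnmt3b* of 0.63. *Epcam*, a surface adhesion protein of germ cells, had a Log2FC of 1.33. *Spp1*, which encodes osteopontin, rose from 1.69 to 19.7 CPM (Log2FC 3.54, edgeR FDR 8.43e-10). It is also a gene of macrophages, whose summed markers were at 38.8 to 49.5 CPM in control and 52.6 to 68.6 CPM in *Bmpr1a*-cKO libraries, with 4 of 8 markers called as higher DEGs, and the part of these cells in the result was not tested. The other higher DEGs of the list were *Calcoco2* (Log2FC 1.75), *Fbxo15* (0.84), *Gdf3* (0.58), *Rif1* (0.57) and *Alpl* (0.54). *Gdf3*, *Alpl*, *Rif1* and *Dnmt3b* were no longer DEGs when scaled to the germ cell marker sum, which left 9. *Gdf3* and *Alpl* were also not DEGs under DESeq2, which left 11. *Gdf3* was not a DEG without control library 1, 3 or 4 or *Bmpr1a*-cKO library 2 or 4, nor *Alpl* without control library 2 or 4 or *Bmpr1a*-cKO library 3 or 4.

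**Figure D5:**
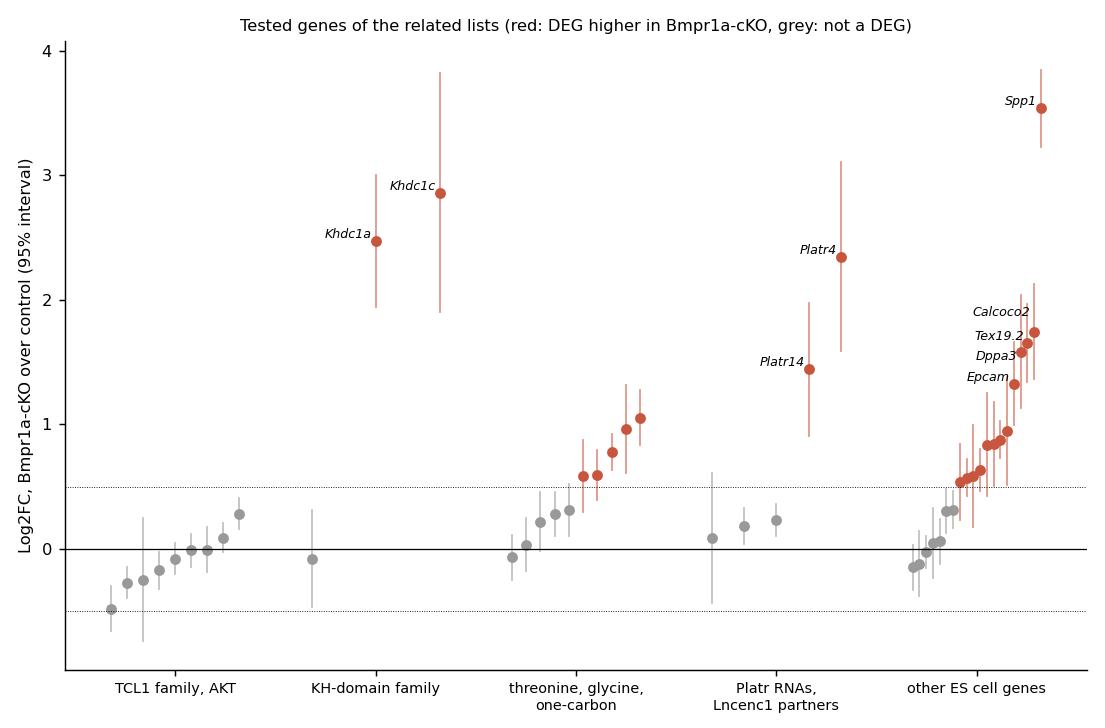
Log2FC (*Bmpr1a*-cKO minus control) of the tested genes in the lists related to the 7 genes; points are genes with 95% intervals, red where higher DEGs and grey where not DEGs, and dotted lines mark the fold limit of 0.5 in either direction. *Khdc1c* and *Platr4*, also drawn in red, passed the filter mainly through *Bmpr1a*-cKO libraries. Their colour and intervals are therefore not to be read as a test. No AKT-related gene is a DEG. The lists of threonine and glycine enzymes and of other ES cell genes hold 5 and 13 higher DEGs, where 6.11% of all tested genes were higher DEGs.

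Within 100 kb of the 7 genes, 24 other genes were in the count data and 10 were tested. Of these, 7 were not DEGs, 1 was higher and 2 were lower, beside 10.2% of all tested genes called in either direction. The 2 lower include *Fam167a*, whose way through the filter is given below. *Kank4os*, 55.3 kb from *L1td1*, went from 1.09 to 2.61 CPM (Log2FC 1.27, edgeR FDR 0.000699); it is antisense to *Kank4*, and without a stated strand setting their reads cannot be told apart. *Ddx43*, a germ cell RNA helicase gene 27.6 kb from *Dppa5a*, fell from 6.92 to 2.5 CPM (Log2FC -1.44, edgeR FDR 0.000479). *Fam167a*, 26.9 kb from *Tdh*, had means of 2.26 CPM (control) and 0.736 CPM (*Bmpr1a*-cKO), and it passed the filter through the control libraries alone, so no test is given. No tested gene within 100 kb of *Dppa5a* or *Tdh* was a higher DEG.

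The genes whose log2 CPM were most alike across the 8 libraries were named for each of the 7 by Pearson's r, which here includes the difference between genotypes and says nothing of shared control. For *Tcl1* they were *Kndc1* (r = 0.997), *Epp13* (0.997) and the adhesion gene *Cdh1* (0.997), for *Dppa4* *Plk3* (0.997), *Drosha* (0.996) and *Gpld1* (0.996), and for *Dppa2* *Auh* (0.993), *Cdkn2aip* (0.993) and the mitotic kinesin *Kif11* (0.992). *Lncenc1* was most alike to *Gm9732* (0.993) and *Rimbp2* (0.992). For *Tdh* they were *Kctd5* (0.986), *Nlrp4c* (0.985) and *Pde7a* (0.981). *Dppa5a* was most alike to *Cox7a2* (0.991), *Pls1* (0.982) and *Mycn* (0.977), and *L1td1* to *Zfp82* (0.918), *Csnk2a2* (0.914) and *Eprs* (0.914). An r of at least 0.9 was reached with 1213 of 14242 other genes for *Tcl1*, 1112 for *Dppa2*, 1026 for *Dppa4*, 1026 for *Lncenc1*, 265 for *Tdh*, 46 for *Dppa5a* and 4 for *L1td1*.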

How the data were processed

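Ovarian RNA of 4 control and 4 *Bmpr1a*-cKO pools was sequenced from directional paired-end libraries. The authors trimmed reads with Trimmomatic 0.39, checked them with FastQC 0.11.9, mapped them to mm10 with STAR 2.5.2 and deposited unnormalised counts per gene for each library. The gene annotation and strand setting of the counting are not given in the sources used here, and the deposited table of normalised values was not used.

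Counts were tested in R 4.3.3 with edgeR 4.0.16 (filterByExpr, TMM, quasi-likelihood F test, two-sided, Benjamini-Hochberg FDR over all 14249 tested genes). A DEG had an absolute Log2FC above 0.5 and an FDR below 0.05. Log2 CPM carried a prior count of 2. The scripts were tested on simulated data. DESeq2 1.42.0, limma-voom (limma 3.58.1), RLE scaling, germ cell marker scaling, no filter, a replicate block and leaving out each library were alternatives. Replicates were pools of separate embryos. Positions came from GENCODE vM21.

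Named were the 7 genes, the genes of related lists, tested genes within 100 kb, and the 3 genes most alike to each; some genes under this rule are not reported here. The 7 genes and the lists were chosen with earlier results of these data known.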

Additional observations from a re-analysis of the deposited data

Results flagged for a closer look

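In 6 of 126 groups of 4 libraries, 1 library stood apart from the other 3 by Dixon's test at its 95% critical value, where chance flags about 1 in 20 groups. *L1td1* was at 7.21 CPM in *Bmpr1a*-cKO library 2, against 5.37 to 5.595 CPM in the other 3. *Epcam* was at 38.3 CPM in *Bmpr1a*-cKO library 1, against 56.8 to 57.5 CPM, and *Akt1* was at 293 CPM in the same library, against 257.8 to 259.9 CPM. Control library 2 stood apart for *Dld* (109 CPM against 84.9 to 87.7 CPM), for *Gdf3* (2.83 CPM against 2.34 to 2.38 CPM) and for the summed mesonephros markers (160.4 CPM against 129.8 to 133 CPM).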

How the results depend on the processing

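*Dppa4* and *Tdh* remained higher DEGs under each alternative run, with Log2FC of 1.66 to 2.14 (edgeR FDR 1.01e-08 to 2.5e-05) and 0.65 to 1.02 (edgeR FDR 0.000584 to 0.0223) when single libraries were left out. In those fits *Tcl1* ranged from 3.27 to 3.51, *Dppa2* from 1.51 to 1.76, *Lncenc1* from 3.38 to 3.92, *Dppa5a* from 0.14 to 0.51 (edgeR FDR 0.0101 to 0.525) and *L1td1* from -0.21 to 0.072, the latter reversed without control library 3. DEGs numbered 1288 to 1627, and those lower among AKT-related genes 0 to 1. Scaling to the germ cell markers gave 427 higher and 957 lower DEGs in place of 871 and 578, 1 lower AKT-related gene (*Phlpp1*, Log2FC -0.65) and 3 threonine and glycine enzymes. With the longest transcript as length, *Tdh* ranked 2 and *Dppa4* 3 in control, and *Lncenc1* ranked 5 and *Dppa2* 6 in *Bmpr1a*-cKO. Same-numbered libraries correlated by 0.198, 0.161, 0.108 and -0.0871 in their deviations. *Bmpr1a*-cKO libraries 1, 2 and 3 and control libraries 1 and 2 correlated best with their own number in the other genotype. *Bmpr1a*-cKO library 4 and control libraries 3 and 4 did not. The litter of each library is not given in the sources used here, and the numbers were not taken as pairs. A replicate block gave 1457 DEGs and left *Dppa5a* under the fold limit (Log2FC 0.33, edgeR FDR 0.0199). Depth limits most the control level of *Lncenc1*, with 10 to 23 counts.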
